A study of Mus musculus with 8 samples.

Results

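DNA methylation is written, read and removed by a small set of proteins, and the 10 genes described here were listed by name from that set: the methyltransferase genes Dnmt1, Dnmt3a, Dnmt3b and Dnmt3l, the reader genes Uhrf1 and Uhrf2, the dioxygenase genes Tet1, Tet2 and Tet3, and the glycosylase gene Tdg. All 10 were found among the 24011 named genes tested. Adult bone marrow of C57Bl6 mice was sorted into 2 populations, each hybridised to 4 arrays. Lin+ cells carry surface markers of mature blood lineages. HSC-enriched cells, a fraction rich in haematopoietic stem cells (HSCs), were sorted as LSKCD105+CD48neg per the labels, that is lineage-negative, Sca-1-positive and Kit-positive cells with CD105 and without CD48. The design text of the series has CD150 where the labels have CD105. Neither population carried an engineered allele or a treatment in the labels, and RNA of both was amplified from a few nanograms before labelling. Whether a sample is 1 animal or a pool is not given in the sources used here, and the spread that the p-values are set against may therefore be technical.

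As background, methyl groups sit on cytosines of CG dinucleotides. Dnmt1, brought to newly copied DNA by Uhrf1, restores the mark after replication, while Dnmt3a and Dnmt3b place it on unmethylated sites and Dnmt3l, which has no catalytic activity of its own, assists them in germ cells. Tet proteins oxidise methylcytosine, and Tdg excises the further oxidised bases so that base excision repair can put back a plain cytosine. In blood, loss-of-function mutations of DNMT3A and TET2 are common in clonal haematopoiesis and leukaemia, and loss of Dnmt3a in mice impairs differentiation of stem cells.

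The sort showed in its markers. Of the gate genes, Kit, Eng (CD105) and Slamf1 (CD150) were higher and Cd48 was lower in HSC-enriched cells, and 9 of 9 measured HSC genes were higher. Markers of neutrophils, B cells, erythroid cells, monocytes and T and NK cells were lower in 13 of 14, 9 of 9, 7 of 7, 8 of 8 and 8 of 8 cases, and 4 of 6 megakaryocyte genes were higher. HSC-enriched replicates 3 and 4 stood apart in neutrophil genes, with a mean log2 level of 9.10 and 8.96 against 6.74 and 6.69 on replicates 1 and 2 and 11.39 to 11.69 on Lin+ arrays. B cell genes averaged 6.64 on HSC-enriched replicate 3 and 4.88 to 5.13 on the other three. Mature lineage cells thus differ between the groups along with every gene described here, and their part in the differences was not tested. Values under 5.10, the 95th percentile of 1074 olfactory receptor genes, were taken as near background.

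Of the 10 genes, 4 rose in HSC-enriched cells (Dnmt3b, Tet1, Uhrf2 and Dnmt3a), 2 fell (Uhrf1 and Tet2) and 4 did not pass (Dnmt1, Tet3, Dnmt3l and Tdg), at a Benjamini-Hochberg adjusted p under 0.05 in limma over all genes. The same threshold called 27.8% of all genes tested, 15.5% of them higher and 12.4% lower. The groups did not overlap for 7 of the 10, against 28.9% of all genes. Dnmt3b and Tet1 were the members that also differed by at least 2-fold, as 10.9% of all genes did. The median difference of the 10 was 0.27 on the log2 scale, against 0.02 over all genes. Levels are log2 values per probe set, so they are compared between arrays for 1 gene and not between genes. In bulk samples such as these, fewer cells of a type and less RNA per cell cannot be told apart.

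**Figure D1:**
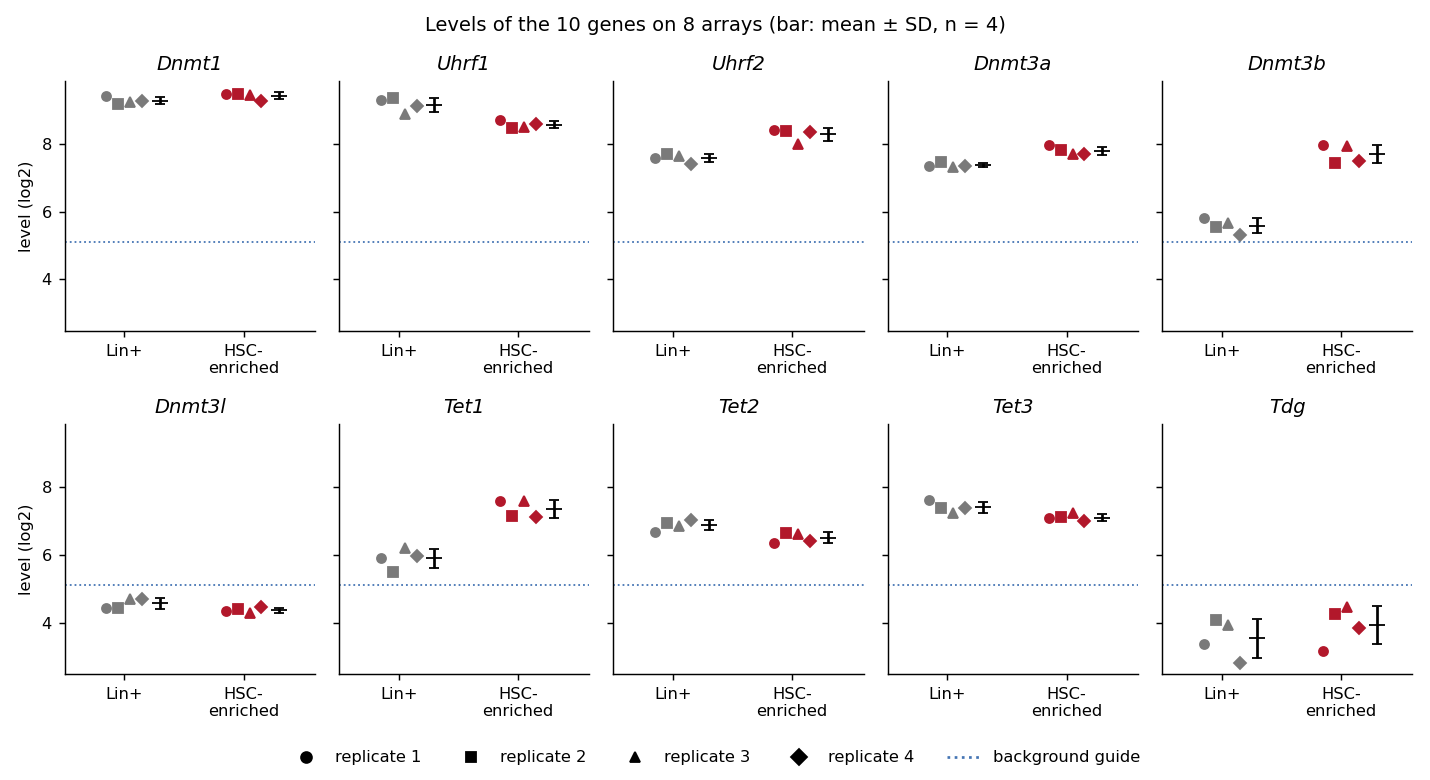
Log2 level (vertical axis) of each of the 10 genes on the 4 Lin+ arrays (grey) and the 4 HSC-enriched arrays (red), with the marker shape giving the replicate, black bars the mean and SD and the dotted line the background guide at 5.10. Dnmt3b and Tet1 show the widest gap between the groups, and Dnmt3l and Tdg lie under the guide on all 8 arrays.

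The start regions of these genes differ in the density of CG, the dinucleotide that carries the methyl mark. RefSeq (GRCm38.p6) lists a start for all 10, some with several. The 250 bases before the start are shown for Dnmt3b and Tet1, the members that rose most, and for Tet2, Uhrf1 and Uhrf2, so that relatives called in opposite directions (Tet1 with Tet2, Uhrf1 with Uhrf2) can be compared. They are written 5′ to 3′ on the gene's strand, with every CG in capitals. For Uhrf1, with 2 listed starts, the outer one is shown.
Dnmt3b, chr2:153649199-153649448, plus strand: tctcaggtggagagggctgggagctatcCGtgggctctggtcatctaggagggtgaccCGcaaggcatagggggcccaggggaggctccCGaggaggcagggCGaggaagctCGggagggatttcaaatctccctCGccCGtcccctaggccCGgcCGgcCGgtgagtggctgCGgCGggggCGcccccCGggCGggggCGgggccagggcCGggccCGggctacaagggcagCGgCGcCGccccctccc
Tet1, chr10:62887325-62887574, minus strand: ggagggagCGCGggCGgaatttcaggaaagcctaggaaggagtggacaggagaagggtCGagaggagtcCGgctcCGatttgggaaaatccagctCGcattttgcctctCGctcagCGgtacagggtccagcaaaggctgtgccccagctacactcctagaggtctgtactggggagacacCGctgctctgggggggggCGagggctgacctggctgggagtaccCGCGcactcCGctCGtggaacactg
Tet2, chr3:133544391-133544640, minus strand: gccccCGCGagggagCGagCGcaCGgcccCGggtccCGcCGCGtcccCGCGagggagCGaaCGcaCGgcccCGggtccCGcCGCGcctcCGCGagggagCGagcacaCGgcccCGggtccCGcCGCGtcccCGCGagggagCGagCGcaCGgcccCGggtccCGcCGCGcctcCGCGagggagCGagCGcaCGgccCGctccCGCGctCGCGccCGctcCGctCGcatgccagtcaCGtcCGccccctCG
Uhrf1, chr17:56303087-56303336, plus strand: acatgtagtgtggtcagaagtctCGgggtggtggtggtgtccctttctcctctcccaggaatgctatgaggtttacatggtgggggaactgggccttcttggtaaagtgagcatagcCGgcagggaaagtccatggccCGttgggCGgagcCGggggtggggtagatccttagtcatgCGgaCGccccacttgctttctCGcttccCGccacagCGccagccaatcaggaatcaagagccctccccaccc
Uhrf2, chr19:30030263-30030512, plus strand: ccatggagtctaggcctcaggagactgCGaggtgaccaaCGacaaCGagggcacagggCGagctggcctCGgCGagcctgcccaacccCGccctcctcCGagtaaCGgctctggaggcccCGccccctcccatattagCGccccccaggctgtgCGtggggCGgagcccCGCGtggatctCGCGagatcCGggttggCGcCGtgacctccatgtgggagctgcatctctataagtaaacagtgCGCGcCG
The window of Tet2 held 51 CG, a count that 0.067% of 32851 such windows of all genes reach, and its letters show several near-copies of a CG-rich stretch. Dnmt3b held 21, Uhrf2 23, Tet1 15 and Uhrf1 10, counts that 16.3%, 13.3%, 27.3% and 37.8% of windows reach. The window before the inner start of Uhrf1, not shown, held 30, which 5.94% reach, so the order of Uhrf1 and Uhrf2 depends on the start taken. The 3 starts of Dnmt3a had 38, 40 and 15 CG, and those of Dnmt3l 5, 4 and 3. The starts of Dnmt1 had 2, 7 and 26, that of Tet3 17 and that of Tdg 19. A GC box (GGGCGG on either strand) was present in all 5 windows shown, 3 times each in Dnmt3b and Uhrf2 and once each in the others, and in 32.7% of all windows. A CCAAT box (CCAAT on either strand) was found once in the window shown for Uhrf1 and in 33.8% of all windows. An E2F-type match (TTTCCCGC, TTTGGCGC, TTTCGCGC or TTTGCCGC on either strand) was found in 1.86% of all windows. Among the members it occurred before the inner start of Uhrf1, 185 bases upstream, and before the innermost of 3 starts of Dnmt1, 219 bases upstream. These matches are descriptions of the letters, and no binding was measured.

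De novo methyltransferase genes were higher in HSC-enriched cells, Dnmt3b far more than Dnmt3a. Dnmt3b (Entrez gene 13436) was at 5.82, 5.54, 5.68 and 5.30 on Lin+ replicates 1 to 4 and at 7.96, 7.44, 7.92 and 7.48 on HSC-enriched replicates 1 to 4. Every HSC-enriched array lay above every Lin+ array, and the Lin+ values were close to the background guide. The difference was 2.12 (SE 0.16, adjusted p = 5.5e-06), a 4.34-fold rise with a 95% interval of 3.38 to 5.56. A difference at least as high was found for 0.766% of all genes.

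Dnmt3a (Entrez gene 13435) moved the same way by a smaller amount. It was at 7.36, 7.46, 7.31 and 7.35 on Lin+ arrays and at 7.95, 7.83, 7.71 and 7.69 on HSC-enriched arrays, without overlap. The rise was 0.42 (SE 0.10, adjusted p = 0.0089), or 1.34-fold, and 16.2% of all genes had a difference at least as high. Dnmt3aos, an antisense transcript of the locus named here after its values were seen, was at 4.96 ± 0.26 in Lin+ and 4.80 ± 0.17 in HSC-enriched cells (log2, SD, n = 4; adjusted p = 0.512), near background. Dnmt3l (Entrez gene 54427), the partner without activity of its own, was under the guide on all 8 arrays, at 4.57 ± 0.16 in Lin+ and 4.37 ± 0.08 in HSC-enriched cells (SD, n = 4), so its difference of -0.20 (adjusted p = 0.235) rests on values near background.

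The maintenance genes did not move together. Dnmt1 (Entrez gene 13433), the enzyme that copies the mark, was at 9.42, 9.19, 9.23 and 9.26 on Lin+ arrays and at 9.47, 9.48, 9.45 and 9.27 on HSC-enriched arrays. The groups overlapped through Lin+ replicate 1 and HSC-enriched replicate 4. The difference was 0.15 with a 95% interval of -0.08 to 0.37 (adjusted p = 0.363), an interval that holds small changes in either direction.

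Uhrf1 (Entrez gene 18140), which reads hemimethylated CG and guides Dnmt1, fell. It was at 9.28, 9.35, 8.89 and 9.11 on Lin+ arrays and at 8.71, 8.47, 8.49 and 8.58 on HSC-enriched arrays. The groups did not overlap, and Lin+ replicate 3 came nearest to the HSC-enriched arrays. The fall of 0.60 (SE 0.12, adjusted p = 0.0043) was 1.51-fold.

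Its relative Uhrf2 (Entrez gene 109113), which shares the domain layout of Uhrf1 and is known to bind hydroxymethylcytosine, rose. It was at 7.58, 7.70, 7.64 and 7.41 on Lin+ arrays and at 8.40, 8.36, 8.004 and 8.36 on HSC-enriched arrays, with replicate 3 the lowest of its group but above every Lin+ array. The rise was 0.70 (SE 0.12, adjusted p = 0.0014), or 1.62-fold.

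Among the Tet genes, Tet1 rose while Tet2 was slightly lower. Tet1 (Entrez gene 52463), best known from embryonic stem cells, was at 5.91, 5.50, 6.20 and 5.96 on Lin+ arrays and at 7.59, 7.14, 7.60 and 7.11 on HSC-enriched arrays. The lowest HSC-enriched array was well above the highest Lin+ array. The rise was 1.47 (SE 0.18, adjusted p = 0.00012), or 2.77-fold with a 95% interval of 2.11 to 3.62, and 2.15% of all genes had a difference at least as high.

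Tet2 (Entrez gene 214133), the Tet gene most often mutated in blood disorders, was at 6.66, 6.95, 6.86 and 7.03 on Lin+ arrays and at 6.34, 6.66, 6.62 and 6.42 on HSC-enriched arrays. The groups did not overlap, but the lowest Lin+ and the highest HSC-enriched array lay side by side. The fall of 0.37 (SE 0.12, adjusted p = 0.044) was 1.29-fold, and its call was lost in 10 of 16 alternatives (adjusted p = 0.023 to 0.139 over all 16). Those that ended it were centring of arrays, trend and robust estimates, the replicate block (adjusted p = 0.063), HSC-enriched replicates 3 and 4 left out together, and leaving out Lin+ replicate 2, 3 or 4 or HSC-enriched replicate 1, 3 or 4. The difference itself stayed between -0.44 and -0.31. Without HSC-enriched replicates 3 and 4, the arrays with more neutrophil transcript, it was -0.38.

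Tet3 (Entrez gene 194388) had a difference of similar size that did not pass. It was at 7.62, 7.39, 7.22 and 7.38 on Lin+ arrays and at 7.08, 7.11, 7.22 and 6.997 on HSC-enriched arrays. The groups were separated by less than the last digit shown, between Lin+ replicate 3 and HSC-enriched replicate 3. The difference was -0.30 (SE 0.11, adjusted p = 0.071), and leaving out Lin+ replicate 3 brought it under the threshold (-0.37, adjusted p = 0.046).

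Tdg (Entrez gene 21665), the glycosylase, was under the guide on all 8 arrays, and its probe set gave the widest spread of the 10. It was at 3.37, 4.06, 3.94 and 2.81 on Lin+ arrays and at 3.17, 4.24, 4.47 and 3.84 on HSC-enriched arrays, with full overlap. The difference of 0.39 had a 95% interval of -0.34 to 1.11 (adjusted p = 0.470), and it ran from 0.14 without Lin+ replicate 4 to 0.64 without HSC-enriched replicate 1. The table also holds 2 pseudogenes of Tdg, named here after their values were seen. Tdg-ps was near background at 4.15 ± 0.14 and 4.12 ± 0.18. Tdg-ps2 was above the guide on all 8 arrays, at 5.70 ± 0.33 in Lin+ and 6.31 ± 0.26 in HSC-enriched cells (SD, n = 4), a rise of 0.61 (adjusted p = 0.030). Its call did not survive the removal of Lin+ replicate 1 (0.45, adjusted p = 0.055). Removal of replicate 3 of the HSC-enriched arrays gave 0.50 (adjusted p = 0.083), of replicate 4 gave 0.57 (adjusted p = 0.069), and of both gave 0.40 (adjusted p = 0.238). Whether probes of these copies pick up Tdg transcript was not tested, so the level of Tdg remains uncertain here.

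**Figure D2:**
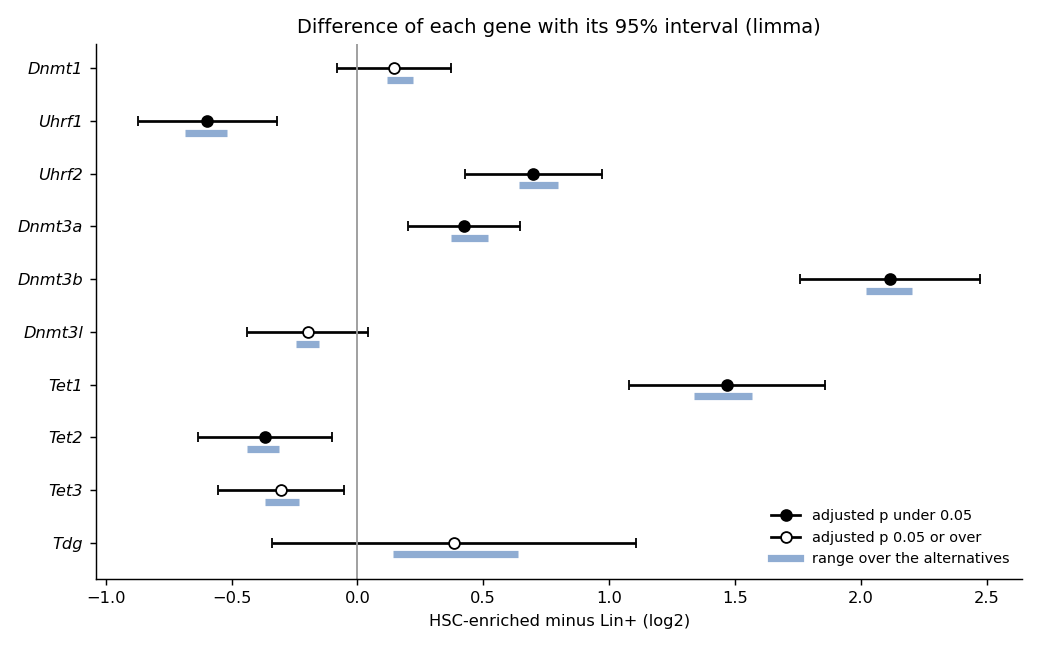
Difference between HSC-enriched and Lin+ cells (log2, horizontal axis) for each gene, with limma's 95% interval as a black bar, filled points for adjusted p under 0.05 and blue bars for the range over the alternative settings. Dnmt3b at 2.12 and Tet1 at 1.47 lie far to the right, and the interval of Dnmt1 crosses 0.

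Relatives were then compared within each array, which asks whether members of 1 family changed unequally. In 5 of 7 pairs the within-array difference separated all HSC-enriched from all Lin+ arrays (two-sided exact permutation test over 70 splits, p = 0.0286, the smallest the design allows, and 0.04 after Benjamini-Hochberg adjustment over the 7 pairs). The change of Dnmt3a minus that of Dnmt3b was -1.69 (SE 0.18), and the change of Dnmt1 minus that of Dnmt3b was -1.97 (SE 0.16). Tet1 gained 1.84 on Tet2 (SE 0.24) and 1.77 on Tet3 (SE 0.22). For Uhrf1 minus Uhrf2 the value was -1.30 (SE 0.14). In the pairs Uhrf1 with Uhrf2, Tet1 with Tet2 and Tet1 with Tet3, each gene alone already separated the groups, in opposite directions. In the pairs of Dnmt3b with Dnmt3a and with Dnmt1, Dnmt3b alone left a gap between the groups, from 5.82 to 7.44. That gap is wider than the whole range of Dnmt3a (7.31 to 7.95) or of Dnmt1 (9.19 to 9.48). The separation of all 5 pairs, and its p, thus followed from the single-gene values and is no further test. The change of Dnmt1 was -0.28 relative to that of Dnmt3a (SE 0.08, exact p = 0.0571, adjusted 0.0667), and passed without Lin+ replicate 2 (-0.34, exact test, adjusted p = 0.0333). Tet2 and Tet3 differed by -0.06 in their change (SE 0.16, exact p = 0.686), an error wide enough to hold unequal changes in either direction.

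The arrays within a group also differed. Dnmt3b and Tet1 were both high on HSC-enriched replicates 1 and 3, at 0.26 and 0.22 above the group mean for Dnmt3b and 0.23 and 0.24 for Tet1. On replicates 2 and 4 both were low, by -0.26 and -0.22 for Dnmt3b and -0.22 and -0.25 for Tet1. The Lin+ arrays did not show that agreement: replicate 2 was the lowest for Tet1 and replicate 4 for Dnmt3b. With 4 arrays a group, no relation between the 2 genes can be tested. The pattern was also not particular to them. The mean of 7 endothelial genes was 7.29, 6.84, 7.13 and 6.82 on HSC-enriched replicates 1 to 4. Zbtb33, a reader of methylated CG, was at 7.98, 7.68, 7.94 and 7.70. Other lists did not follow it. Neutrophil genes were high on HSC-enriched replicates 3 and 4. Without those replicates Dnmt3b differed by 2.12 (adjusted p = 0.00011), Tet1 by 1.47 (adjusted p = 0.0013), Uhrf2 by 0.80 (adjusted p = 0.003), Dnmt3a by 0.52 (adjusted p = 0.017) and Uhrf1 by -0.57 (adjusted p = 0.039), each as called with all arrays. That fit keeps all 4 Lin+ arrays, where neutrophil genes averaged 11.39 to 11.69, so the part of mature cells was not tested.

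**Figure D3:**
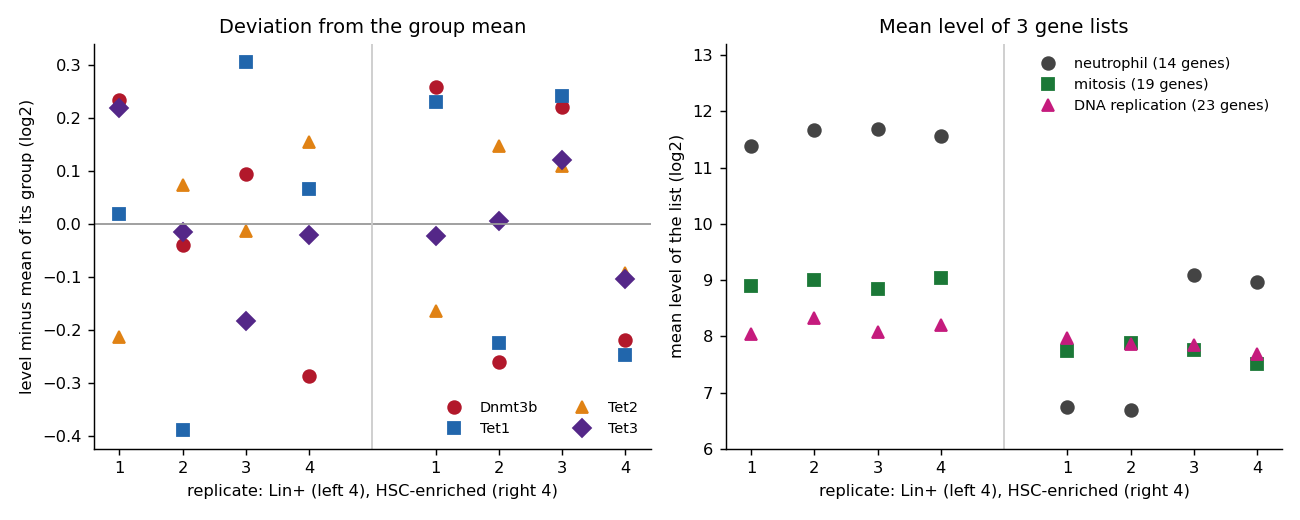
Left, level of Dnmt3b, Tet1, Tet2 and Tet3 on each array minus the mean of its group (log2); right, mean log2 level of 14 neutrophil, 19 mitosis and 23 DNA replication genes on the same arrays, with Lin+ replicates 1 to 4 on the left of each panel and HSC-enriched replicates 1 to 4 on the right. Dnmt3b and Tet1 are above 0 on HSC-enriched replicates 1 and 3 and below 0 on replicates 2 and 4, while neutrophil genes are higher on replicates 3 and 4.

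Cell cycle genes were read in 2 lists, since Dnmt1 and Uhrf1 act on newly copied DNA. All 19 measured mitosis genes fell (median -1.12), led by the kinase gene Plk1 (3.76-fold) and Ube2c (3.39-fold). Their mean level was 8.84 to 9.04 on Lin+ and 7.50 to 7.89 on HSC-enriched arrays. Of 23 DNA replication genes 6 fell, 3 rose and 14 did not pass (median -0.30). Over all genes, 12.4% passed as lower and 15.5% as higher. Rrm2, a subunit of ribonucleotide reductase, and the cyclin gene Ccne1 fell by 2.49 and 1.55, while Chaf1b, of the chromatin assembly factor, and the helicase gene Mcm6 rose by 0.85 and 0.50. Pcna, the clamp that Dnmt1 binds at the replication fork, was 11.57 ± 0.18 against 11.73 ± 0.06 (SD, n = 4) with an adjusted p of 0.364, and it passed after quantile normalization (0.37, adjusted p = 0.019). Rrm1 (-0.30, adjusted p = 0.054) did not pass either, and did in 5 of 16 alternatives, with values of -0.34 to -0.30. The part of the cell cycle in the fall of Uhrf1 was not tested.

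For each member that passed, the genes with the most similar profile were found by the root mean square difference over the 8 arrays, each gene centred on its own mean. For Uhrf1 these were Ezh2, the methyltransferase of Polycomb complex 2, and Mrpl49, a mitochondrial ribosomal protein gene (0.0870 and 0.0872 log2 units). Ezh2 was at 9.18 ± 0.19 in Lin+ and 8.51 ± 0.07 in HSC-enriched cells. Dnmt3b was followed most closely by Cavin3 and Usp54 (0.190 and 0.191), and Cavin3 was at 5.68 ± 0.23 and 7.72 ± 0.22. For Tet1 the nearest were Bcam, an adhesion molecule gene, and Lrp12 (0.160 and 0.169). Bcam was at 6.94, 6.42, 6.80 and 6.42 on HSC-enriched replicates 1 to 4. It was chosen for its closeness to Tet1 on these same arrays, so being high on the same replicates is no separate finding. The nearest to Dnmt3a were Clpp and Syne3 (0.0439 and 0.0543), to Uhrf2 Naxe and Tbrg1 (0.0815 and 0.0825) and to Tet2 Pdzd8 and Rnf185 (0.0367 and 0.0393). A small distance is easier to reach for a gene with a small change, so these values are not compared between members.

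The wider pathway was read in lists of 65 measured genes (of 71 listed), of which 18 rose, 8 fell and 39 did not pass. Over all genes tested, 15.5% passed as higher and 12.4% as lower, 27.8% in all, the shares to set beside the counts of each list. The readers and the partners of Dnmt enzymes were called at close to that total share. Among 8 measured proteins that bind methylated CG, 1 rose and 1 fell (2 fell when HSC-enriched replicate 3 was left out). Zbtb38, a zinc finger reader, rose 2.40-fold (adjusted p = 1.5e-05) and Mbd2, a subunit of the NuRD repressor complex, fell 1.70-fold (adjusted p = 0.0009), while Mbd6 (0.29) and Zbtb33 (0.23) did not pass. The median was 0.22. Of 16 partners of the Dnmt enzymes 4 rose and none fell (median 0.15), with 1 falling when Lin+ replicate 3 was left out. Cdca7l, a relative of the Hells activator Cdca7, rose 2.95-fold, from 7.06 ± 0.17 to 8.62 ± 0.14 (SD, n = 4), and Trim28, the corepressor that protects imprinted methylation, rose 1.61-fold. Cdca7 (0.61) and Zfp57 (0.62) also rose, whereas Usp7, a deubiquitinase that stabilises Uhrf1, was 9.03 ± 0.17 against 9.04 ± 0.03 and did not pass, with a sign that turned when Lin+ replicate 1 or 3 was left out (-0.02 and -0.04).

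Enzymes that make or use the Tet cosubstrate alpha-ketoglutarate moved in opposite directions. The isocitrate dehydrogenase gene Idh2, mitochondrial, rose 2.31-fold (8.30 ± 0.12 to 9.50 ± 0.09, adjusted p = 1.2e-05) and its cytosolic counterpart Idh1 fell 2.36-fold (8.81 ± 0.18 to 7.58 ± 0.26, adjusted p = 0.00012). Of the 12 genes of the whole list, which holds partners of the Tet proteins beside these enzymes, 4 rose and 2 fell (median 0.15). Idh3b rose by 0.58, and Ogdh, which consumes alpha-ketoglutarate, fell by 0.40. That call ended when HSC-enriched replicate 2 was left out (-0.37, adjusted p = 0.051) and when both arrays with more neutrophil transcript were (-0.34, adjusted p = 0.131). In both settings 1 gene of the list fell in place of 2. Ogt and Oga, which add and remove the sugar GlcNAc and of which Ogt binds Tet proteins, did not pass (-0.20 and -0.08).

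Among base excision repair and demethylation genes listed as partners of Tdg, 3 of 14 rose and 4 fell (median 0.08). Gadd45a and Gadd45g, stress genes that have been linked to demethylation, fell 3.71-fold and 2.92-fold. On HSC-enriched replicate 2 Gadd45g was under the guide (4.92), so its fold rests in part on a value near background. Gadd45b (-0.96) did not pass with an SD of 0.78 in HSC-enriched cells. It passed without HSC-enriched replicate 2 (-1.33, adjusted p = 0.0043), without Lin+ replicate 4 (-1.17, adjusted p = 0.048) and with the replicate block (adjusted p = 0.048). Apex1, the endonuclease that follows Tdg, rose by 0.67. Neil1 and Neil3 fell (-0.84 and -1.15), with means above the guide in both groups. Their relative Neil2 was under the guide on all 4 Lin+ and on 2 of 4 HSC-enriched arrays. With means of 4.45 and 5.10, its rise of 0.65 rests on values near background. Its call ended without Lin+ replicate 3 or 4 (adjusted p = 0.061 and 0.062). It also ended when both arrays with more neutrophil transcript were left out (adjusted p = 0.072). Parp1 (0.30, and 0.17 without Lin+ replicate 3) did not pass.

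In the methionine and folate cycles, which supply the methyl donor, 6 of 15 measured genes rose and 1 fell (median 0.50 against 0.02 over all genes). The mitochondrial pair of folate enzymes Mthfd2l and Mthfd2 were called in opposite directions. Mthfd2l was higher (adjusted p = 0.00059), with means of 4.88 and 6.13, and since 3 of 4 Lin+ arrays were under the guide no fold is given. Mthfd2 was 2.29-fold lower (adjusted p = 0.00014). Shmt1, the cytosolic serine hydroxymethyltransferase, was 6.15 ± 0.08 against 7.02 ± 0.05 (SD, n = 4) and rose 1.83-fold. The methionine synthase gene Mtr (0.53) and its reductase Mtrr (0.64) rose as well, while Mat2b (0.16) and Tyms (0.04) did not pass. The sign of Tyms turned without Lin+ replicate 1 (-0.03) or HSC-enriched replicate 3, where it was close to 0.

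**Figure D4:**
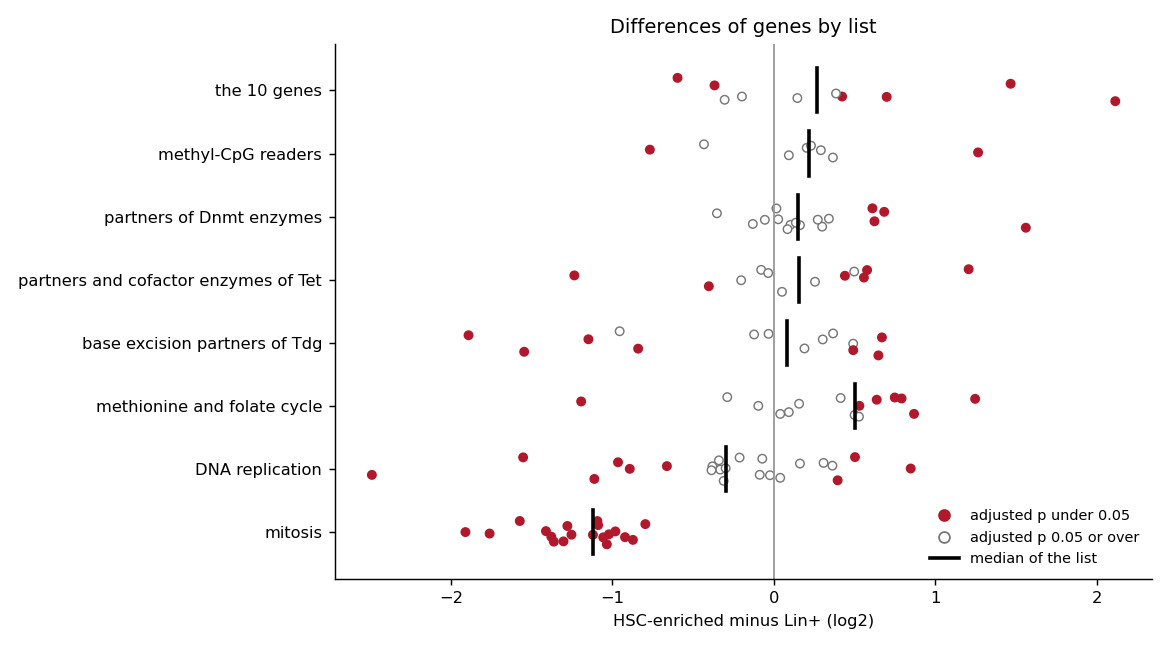
Difference between HSC-enriched and Lin+ cells (log2, horizontal axis) of every measured gene in the lists named on the left, filled for adjusted p under 0.05, with a black line at the median of each list and a random vertical offset within each row to separate points. Mitosis genes lie to the left of 0 without exception, and the methionine and folate list has its median at 0.50.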

How the data were processed

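Per the labels' protocols, a few nanograms of total RNA were amplified (Ovation Pico), given a biotin label and read on 1-colour Affymetrix MouseGene ST arrays; 2 array versions are named without saying which sample went on which. The deposited values are log2 levels of 24973 probe sets, 1 for each Entrez gene ID. Per the submitters' processing notes, the authors used RMA and Partek (no version named). Neither the genome build nor the probe set definition is given in the sources used here. Symbols came from the platform's probe table for 24015 probe sets (958 are unnamed here) and were updated by Entrez gene ID through RefSeq (GRCm38.p6) for 23922. Of several probe sets of 1 symbol the brightest was kept, which gave 24011 genes.

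Differences are HSC-enriched minus Lin+ means, tested on all genes, without covariates, by the moderated test of limma 3.58.1 in R 4.3.3. Adjusted p-values are Benjamini-Hochberg values over all genes, at a threshold of 0.05. Relatives were compared by exact permutation over arrays. The members and lists were chosen with earlier results of these data known. Beside the 10 members, the text names in each list the 2 passing genes that rose most and the 2 that fell most, as far as there are any, the 2 brightest that did not pass, and the 2 nearest profiles of each passing member. Zfp57, Cdca7, Mtr, Mtrr, Neil1 and Neil3 were named after their values were seen. Marker lists were the gate, HSC and 7 other cell types; of 7 endothelial genes, 3 were higher and 1 lower. Alternatives were centring, quantile normalization, 2 filters on low values, array weights, a trend with robust estimates, the replicate block and each array left out; the fit without both HSC-enriched replicates 3 and 4 was chosen after seeing the data. Replicates are numbered 1 to 4 in both groups, but same-numbered arrays deviated together with correlations of only -0.15 to 0.06 across genes, so the numbers were not taken to pair samples. The limma fit was tested on simulated data. The number of arrays limits the precision. Figures were drawn with matplotlib 3.10.9.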

Additional observations from a re-analysis of the deposited data

Results flagged for a closer look

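In 114 groups of 4 arrays (57 named genes in both populations), 8 held an array whose gap to the nearest of the others took up a share of the group's range above Dixon's 95% critical value, where chance gives about 1 in 20. The member among them was Uhrf2, at 8.004 on HSC-enriched replicate 3 against 8.36 to 8.40 on the others. Around the members, Tdg-ps2 was at 5.22 on Lin+ replicate 1 (5.81 to 5.93 on the others) and Dnmt3aos at 4.57 on Lin+ replicate 2 (5.06 to 5.13). In the pathway lists, Ogdh was at 8.77 on Lin+ replicate 4 and at 8.45 on HSC-enriched replicate 1, each the highest of its group. Pcna was at 11.30 on Lin+ replicate 3 and Gadd45g at 4.92 on HSC-enriched replicate 2, each the lowest. Plk1 was at 6.61 on HSC-enriched replicate 4 (7.51 to 7.62 on the others).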

How the results depend on the processing

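Dnmt3b, Tet1, Uhrf2, Dnmt3a and Uhrf1 kept their direction and their call in all 16 alternatives, with differences of 2.02 to 2.20, 1.34 to 1.57, 0.64 to 0.80, 0.37 to 0.52 and -0.69 to -0.52. Dnmt1 did not pass in any of them (0.12 to 0.22). Tet2 accounts for the change in the number of members that fell, which was 1 in place of 2 with centring, trend and robust estimates, the replicate block and HSC-enriched replicates 3 and 4 left out, and 1 to 2 when single arrays were left out. The filters on low values removed Dnmt3l and Tdg. Among the partners of Dnmt enzymes 1 gene fell with either filter and with trend and robust estimates, and 0 to 1 with single arrays left out. The readers held 2 falling genes without HSC-enriched replicates 3 and 4 and 1 to 2 with single arrays left out, the Tet list 1, and 1 to 2 with single arrays left out, and 5 DNA replication genes rose after quantile normalization. The within-array differences of relatives kept their sign and their side of the threshold under quantile normalization. Paired by replicate number and tested by exact sign flips, whose smallest p with 4 pairs is 0.125, the differences -1.69, -1.97, -1.30, 1.84 and 1.77 (Dnmt3a to Dnmt3b, Dnmt1 to Dnmt3b, Uhrf1 to Uhrf2, Tet1 to Tet2, Tet1 to Tet3) had an adjusted p of 0.146. The change of Dnmt1 relative to Dnmt3a ran from -0.34 to -0.22 with single arrays left out. With single arrays left out, Tdg-ps ran from -0.12 to 0.031 (positive without Lin+ replicate 2 or HSC-enriched replicate 2), Usp7 from -0.042 to 0.065 and Tyms from -0.035 to 0.13 (both as given with their levels); none of them passed. The cause was not tested for these changes. With the block, the limma fit called 3379 genes higher and 2743 lower, against 3716 and 2969. The block ended the calls of Tet2 and of its nearest profiles Pdzd8 and Rnf185, brought Gadd45b under the threshold and changed no other call among the 57 genes recomputed under each setting. Zfp57, Cdca7, Mtr, Mtrr, Neil1, Neil3 and the cell markers were not among those genes.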
